A study of Homo sapiens with 8 samples.

Results

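Long noncoding RNAs (lncRNAs) whose symbol ends in -AS and a digit are named after a neighbouring gene, which they usually face on the opposite strand. In SK-N-SH, an established human neuroblastoma cell line, 137 of the 1811 antisense-named lncRNAs held at least 2000 counts summed over the 8 libraries, out of 60659 genes in the count table. They were selected on that sum, and each was set beside the gene left when the suffix is taken off its symbol, here called its partner. The 137 lncRNAs had 135 distinct partners, because BCAN-AS1 and BCAN-AS2 share BCAN and DLGAP1-AS1 and DLGAP1-AS2 share DLGAP1. Of these partners, 133 were annotated as protein-coding.

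Antisense transcripts are made from the strand opposite a gene, and many start close to that gene's own start, where RNA polymerase leaves the promoter in both directions. Some are known to act on the gene they face, through its chromatin, its transcription or its RNA, and for many no role is known. The level of such a pair can therefore move together or apart, and a lncRNA can also change while its partner keeps its level.

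Ribosomal RNA-depleted total RNA was sequenced from 4 groups of 2 libraries, which the labels call biological replicates, and all cells received 10 μM all-trans retinoic acid (ATRA) for 24 h. The overexpression experiment compared parental SK-N-SH cells given doxycycline (Dox) and ATRA with cells that carried a Dox-inducible lentiviral FLAG-tagged ZMYND8 and received the same agents. The knockdown experiment compared KD control cells with cells in which a lentiviral short hairpin RNA lowered ZMYND8, both with ATRA and, by the labels, without Dox. ZMYND8 is a chromatin reader. The labels do not say whether the parental cells carried an empty vector, so the vector and the transgene cannot be told apart in the overexpression experiment.

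Libraries held between 38316523 and 56256979 counts on genes. ZMYND8 had 3089 and 3612 counts in parental libraries and 220691 and 182849 in overexpression, and 3128 and 3374 in KD control against 1641 and 1640 in knockdown, so the labels matched the targeted gene. The cells are labelled as neuroblastoma epithelial cells. Of the marker lists used, 9 of 9 tested adrenergic neuroblastoma markers rose and 10 of 10 mesenchymal-type markers fell in overexpression, while in knockdown 4 of 8 adrenergic markers fell and, of 10 mesenchymal-type markers, 4 rose and 3 fell. Levels are given per length throughout, as counts per kilobase of exon per 1000000 counts after TMM scaling of all 8 libraries. The summed per-length level of the adrenergic list was 125 and 126 in parental and 354 and 373 in overexpression libraries, and 242 to 255 in KD control against 189 to 212 in knockdown. That of the mesenchymal-type list was 1762 and 1802 against 672 and 715, and 732 to 774 against 902 to 934. The epithelial list summed to 138 and 140 in parental and 52.0 and 69.5 in overexpression, and the blood and endothelial list to at most 0.361 in every library, with PTPRC, CD3E and HBB at 3 counts or fewer, and the liver list to at most 0.0331. In bulk RNA, a change in the share of cells of 1 state and a change in RNA per cell cannot be told apart, and their part in the results on the lncRNAs was not tested.

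Both starts of a pair can lie within a single promoter window. RefSeq lists windows of 300 bases (250 before to 50 after a start, GRCh38.p14) for 110 of the 137 lncRNAs and 112 of the 135 partners, and in 27 pairs a window of the lncRNA also held a start of its partner on the opposite strand. In 26 of these 27 pairs the partner start lay upstream, so that the genes run away from each other. Windows of 4 such pairs are shown because they span the outcomes in these cells: HAND2-AS1 and HAND2 rose together in overexpression, LPP-AS2 and LPP fell together, RTCA-AS1 and RTCA moved apart in both experiments, and TPT1-AS1 changed beside a partner that did not pass in either. All 4 windows were chosen for these outcomes, after the values were seen. Each line reads 5′ to 3′ on the strand of the lncRNA, and capitals mark the stretch from the partner's start to that of the lncRNA, both starts included, which is 230 bases in HAND2-AS1 (chr4:173530208-173530507, + strand), 163 in TPT1-AS1 (chr13:45341095-45341394, + strand), 43 in RTCA-AS1 (chr1:100266125-100266424, − strand) and 70 in LPP-AS2 (chr3:188154039-188154338, − strand).
HAND2-AS1: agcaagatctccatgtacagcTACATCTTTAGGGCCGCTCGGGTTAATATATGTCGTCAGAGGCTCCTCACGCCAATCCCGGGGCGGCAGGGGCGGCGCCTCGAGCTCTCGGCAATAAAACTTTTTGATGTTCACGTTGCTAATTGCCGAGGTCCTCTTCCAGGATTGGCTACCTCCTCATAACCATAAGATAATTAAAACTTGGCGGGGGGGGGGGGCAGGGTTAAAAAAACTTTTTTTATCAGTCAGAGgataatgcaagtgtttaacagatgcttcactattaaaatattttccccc
TPT1-AS1: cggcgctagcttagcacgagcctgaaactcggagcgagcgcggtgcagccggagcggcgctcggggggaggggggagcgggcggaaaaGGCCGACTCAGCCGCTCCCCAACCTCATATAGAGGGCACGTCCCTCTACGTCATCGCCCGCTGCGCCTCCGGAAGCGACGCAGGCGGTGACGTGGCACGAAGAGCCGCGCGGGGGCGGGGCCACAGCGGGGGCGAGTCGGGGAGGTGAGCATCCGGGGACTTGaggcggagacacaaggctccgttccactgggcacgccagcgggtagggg
RTCA-AS1: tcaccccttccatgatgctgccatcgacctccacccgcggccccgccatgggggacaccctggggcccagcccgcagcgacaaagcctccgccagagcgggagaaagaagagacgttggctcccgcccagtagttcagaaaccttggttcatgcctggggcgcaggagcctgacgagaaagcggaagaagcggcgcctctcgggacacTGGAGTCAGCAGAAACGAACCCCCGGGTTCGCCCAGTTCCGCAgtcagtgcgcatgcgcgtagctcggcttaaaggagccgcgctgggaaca
LPP-AS2: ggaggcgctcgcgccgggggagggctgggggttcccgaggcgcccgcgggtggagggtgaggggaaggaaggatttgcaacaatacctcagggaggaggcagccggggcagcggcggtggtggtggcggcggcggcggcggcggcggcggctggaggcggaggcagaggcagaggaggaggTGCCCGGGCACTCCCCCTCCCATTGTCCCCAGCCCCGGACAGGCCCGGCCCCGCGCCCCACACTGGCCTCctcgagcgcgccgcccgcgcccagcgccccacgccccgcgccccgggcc

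Windows of DLX6-AS1 and GATA2-AS1, which rose most steeply beside transcription factor genes in overexpression, and of MSRB3-AS1, which fell most, are shown next with each CG dinucleotide in capitals. DLX6-AS1 (chr7:97014016-97014315, − strand) held 3 CG dinucleotides and MSRB3-AS1 (chr12:65642323-65642622, − strand) held 1, whereas GATA2-AS1 (chr3:128488953-128489252, + strand) held 24. The median was 27 over the 147 windows of the lncRNAs and 14 over all 35116 RefSeq windows, so DLX6-AS1 and MSRB3-AS1 lie below both medians.
DLX6-AS1: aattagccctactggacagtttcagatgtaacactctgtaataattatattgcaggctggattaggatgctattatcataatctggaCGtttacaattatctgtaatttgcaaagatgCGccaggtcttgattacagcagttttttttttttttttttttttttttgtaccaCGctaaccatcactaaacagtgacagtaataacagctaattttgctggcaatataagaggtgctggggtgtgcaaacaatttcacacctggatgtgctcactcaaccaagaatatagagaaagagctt
GATA2-AS1: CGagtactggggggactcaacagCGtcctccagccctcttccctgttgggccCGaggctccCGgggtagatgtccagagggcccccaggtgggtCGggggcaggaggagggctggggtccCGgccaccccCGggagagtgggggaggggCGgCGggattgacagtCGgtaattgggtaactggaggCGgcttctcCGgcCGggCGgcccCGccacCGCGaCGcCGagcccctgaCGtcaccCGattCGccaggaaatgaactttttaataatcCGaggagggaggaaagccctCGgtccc
MSRB3-AS1: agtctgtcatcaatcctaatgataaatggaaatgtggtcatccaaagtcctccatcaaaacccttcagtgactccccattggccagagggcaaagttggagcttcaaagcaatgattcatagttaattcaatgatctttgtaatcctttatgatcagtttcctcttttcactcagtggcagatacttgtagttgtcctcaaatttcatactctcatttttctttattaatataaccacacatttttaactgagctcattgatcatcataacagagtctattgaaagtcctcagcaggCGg

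Short motifs were counted on both strands of the windows, with matches allowed to overlap. The nuclear receptor half-site AGGTCA, of the kind that retinoic acid receptors bind, was found in 10.9% of the lncRNA windows and in 13.8% of all windows. AGATAA, which GATA factors bind, was found in 6.12% against 10.3%, and CACCTG, which ZEB1 binds, in 19.0% against 20.6%. These shares rest on 16, 9 and 28 of the 147 lncRNA windows, and their difference from all windows was not tested. A match of letters is not a bound site.

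The gene models give most pairs a shared stretch. In the annotation, 135 of the 137 lncRNAs lay on the strand opposite their partner, and FAM131B-AS2 and PYDC2-AS1 lay on the same strand. Exons of both genes overlapped in 110 pairs, the spans overlapped without a shared exon base in 19, and the spans were apart in 8. Starts of opposite-strand genes were within 1000 bases of each other in 41 pairs, here called head to head. The share of a lncRNA's exon bases that lay opposite an exon of its partner had a median of 4.53%.

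LncRNAs were mostly below their partners. Over all libraries the mean per-length level of a lncRNA ranged from 0.325 to 47.9 with a median of 1.85, and that of a partner from 0.0163 to 261 with a median of 8.52. The median lncRNA stood at 29.0% of its partner's per-length level, and 34 of the 137 lncRNAs stood above their partner. The highest were FAM131B-AS2 and FGD5-AS1. FGD5-AS1 was at 45.3 and 46.6 in parental, 47.6 and 48.9 in overexpression, 30.5 and 31.8 in KD control and 26.2 and 28.7 in knockdown, whereas FGD5 had between 1 and 28 counts in every library. FAM131B-AS2, whose partner is described below, had per-length levels of 96.2 and 105 in parental cells and of 20.4 to 35.6 in the other 6 libraries. OIP5-AS1 and HSD17B1-AS1 lay between 11.1 and 18.4 in every library.

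Overexpression changed 97 of the 137 lncRNAs at an adjusted p below 0.05, 68 upwards and 29 downwards, with the largest increases at DLX6-AS1, ADAMTS9-AS2, GATA2-AS1 and TMEM51-AS1 and the largest decreases at MSRB3-AS1, MSC-AS1, LPP-AS2 and FAM131B-AS2. Among all 20835 genes tested by edgeR's quasi-likelihood test in this comparison, 31.7% rose and 29.1% fell at that threshold. Higher members were therefore 49.6% of the lncRNAs and lower members 21.2%, and the median log2 fold change was 0.26 over the lncRNAs and 0.03 over all genes. Of 295 other lncRNAs with the same minimum of counts, 43.7% rose and 26.8% fell, and of 11101 protein-coding genes with that minimum, 27.4% rose and 42.6% fell. The direction of the lncRNAs thus resembled that of other abundant lncRNAs more than that of abundant protein-coding genes, in shares that were not tested against each other. The selection bears on this: 106 of the 137 members held 500 counts in the parental pair of libraries and 123 did in the overexpression pair. Only 77 held 500 counts in the pair of every group. A member could thus enter through the group in which it was higher. How far the selection sets these shares and the largest changes was not tested.

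A call further needs a mean normalized count above 20 and a change of 1 or more on the log2 scale. By it, 16 lncRNAs were called higher and 11 lower, which is 11.7% and 8.03% of the 137, against 11.8% and 6.84% of all genes. Both shares were close to the background. Of 132 distinct partners tested, 42 rose and 43 fell, which is 31.8% and 32.6%, against 31.7% and 29.1% of all genes. Of these partners 12 were called higher and 14 lower, which is 9.09% and 10.6%, against 11.8% and 6.84% of all genes. Their median log2 fold change was -0.03.

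**Figure D1:**
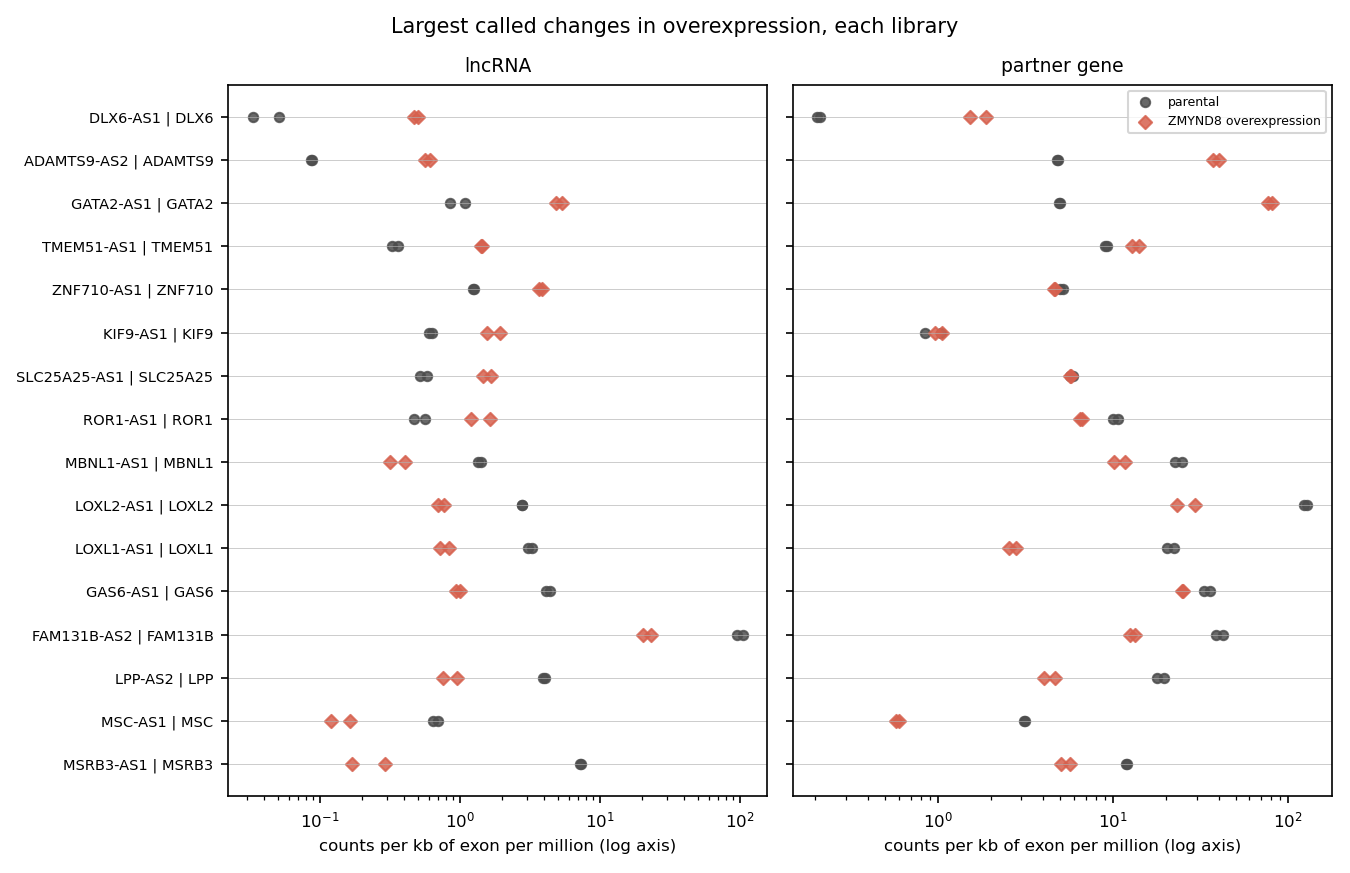
Per-length level (counts per kilobase of exon per 1000000 counts, log axis) of the lncRNAs called in overexpression that rose most (8) or fell most (8) (left) and of their partners (right), 1 point per library, with circles for parental and diamonds for overexpression. The 2 groups of points are apart for all 16 lncRNAs, while those of KIF9 and SLC25A25 on the right overlap.

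DLX6-AS1, GATA2-AS1, GATA3-AS1 and HAND2-AS1 rose together with their partners, which encode transcription factors. HAND2, GATA2 and GATA3 are also on the adrenergic marker list given above. DLX6-AS1 lies opposite DLX6, which encodes a homeobox factor of forebrain and limb development. Its per-length level was 0.0515 and 0.0332 in parental libraries and 0.474 and 0.504 in overexpression (log2 fold change 3.55 ± 0.19 (SE), adjusted p = 6.92e-08). DLX6 was at 0.205 and 0.213 against 1.53 and 1.89 (3.03 ± 0.19). Parental libraries were the lowest for both genes, with DLX6-AS1 at 37 and 29 counts there and at a per-length level of 0.369 to 0.499 in the 4 libraries of the knockdown experiment.

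GATA2 encodes a zinc finger factor of blood precursors and sympathetic neurons. GATA2-AS1 (chr3:128489212-128502970, + strand) had per-length levels of 1.09 and 0.859 in parental and 5.40 and 4.90 in overexpression libraries (log2 fold change 2.42 ± 0.13, adjusted p = 6.99e-08), and GATA2 of 5.01 and 4.90 against 77.1 and 80.5 (4.0003 ± 0.06). The partner thus rose by more than the lncRNA, and all 4 libraries of the knockdown experiment, at 4.45 to 5.30 for GATA2-AS1, lay far above the parental ones. GATA3-AS1, beside the related factor GATA3, was at 1.73 and 1.78 against 3.89 and 3.40 (1.07 ± 0.12, adjusted p = 2.84e-05), and GATA3 rose by 0.82 ± 0.05 on the log2 scale.

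HAND2, a basic helix-loop-helix factor of sympathetic neurons and the heart, shares its promoter window with HAND2-AS1, as shown above. The lncRNA was at 6.54 and 6.33 in parental and 15.1 and 16.8 in overexpression libraries (log2 fold change 1.32 ± 0.06, adjusted p = 1.69e-08), and HAND2 at 30.5 and 30.5 against 104 and 110 (1.82 ± 0.05). Knockdown moved both the other way: HAND2-AS1 went from 6.16 and 7.11 to 5.14 and 5.63 (-0.30 ± 0.07, adjusted p = 0.0125) and HAND2 from 64.9 and 67.6 to 51.8 and 59.5 (-0.25 ± 0.06, adjusted p = 0.0181). Neither gene passed in knockdown without KD control 2 (HAND2-AS1 -0.19, HAND2 -0.22), and HAND2 did not pass without knockdown 1 (-0.16).

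Further lncRNAs beside transcription factor genes changed less. NR2F1-AS1, beside an orphan nuclear receptor gene, rose by 0.20 ± 0.07 on the log2 scale while NR2F1 rose by 0.79 ± 0.05, and the lncRNA did not pass with DESeq2 (adjusted p = 0.182) or without parental 1 (0.19), parental 2 (0.18) or overexpression 2 (0.14). TBX2-AS1 fell by 0.45 and TBX2, a T-box repressor, fell by 1.24 on the log2 scale, and the lncRNA did not pass without parental 2 (-0.35). Both pairs changed in 1 direction, with the larger change at the partner.

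ADAMTS9-AS2, which lies across the start of the gene of a secreted metalloprotease, rose from 0.0885 and 0.0868 to 0.561 and 0.609 in per-length level (log2 fold change 2.74 ± 0.18, adjusted p = 3.91e-07), and ADAMTS9 from 4.76 and 4.86 to 37.4 and 40.4 (3.02 ± 0.06). As at DLX6 and GATA2, the pair shared no exon base and both genes rose. In the knockdown experiment ADAMTS9-AS2 was at 0.805 to 0.899 in all 4 libraries, above both overexpression libraries.

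Other lncRNAs rose beside partners that did not pass the test. ZNF710-AS1 was at 1.25 and 1.27 in parental and 3.88 and 3.66 in overexpression libraries (log2 fold change 1.59 ± 0.11), while ZNF710, a zinc finger gene, was at 4.97 and 5.17 against 4.62 and 4.67 (-0.12 ± 0.07, adjusted p = 0.144). KIF9-AS1 went from 0.5996 and 0.634 to 1.58 and 1.93 (1.51 ± 0.13), with KIF9, a kinesin motor gene, at 0.11 ± 0.14. SLC25A25-AS1 went from 0.586 and 0.524 to 1.46 and 1.66 (1.503 ± 0.13), with SLC25A25, a mitochondrial carrier gene, at -0.01 ± 0.06. The groups of libraries were apart for each lncRNA and, among the partners, for ZNF710, and overlapped for KIF9 and SLC25A25.

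TPT1-AS1 gave the same contrast within a single promoter window. Its per-length level was 0.377 and 0.416 in parental and 0.764 and 0.770 in overexpression libraries (log2 fold change 0.96 ± 0.11, adjusted p = 2.10e-05). TPT1, which encodes an abundant protein of growing cells, was at 158 and 145 against 148 and 152 (-0.00 ± 0.05, adjusted p = 0.969). In knockdown the lncRNA went from 0.702 and 0.714 to 0.547 and 0.523 (-0.40 ± 0.10, adjusted p = 0.0138), and TPT1 was at -0.02 ± 0.08. TMEM51-AS1, whose window also holds both starts, rose by 2.06 ± 0.10 against 0.57 ± 0.07 for TMEM51.

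**Figure D2:**
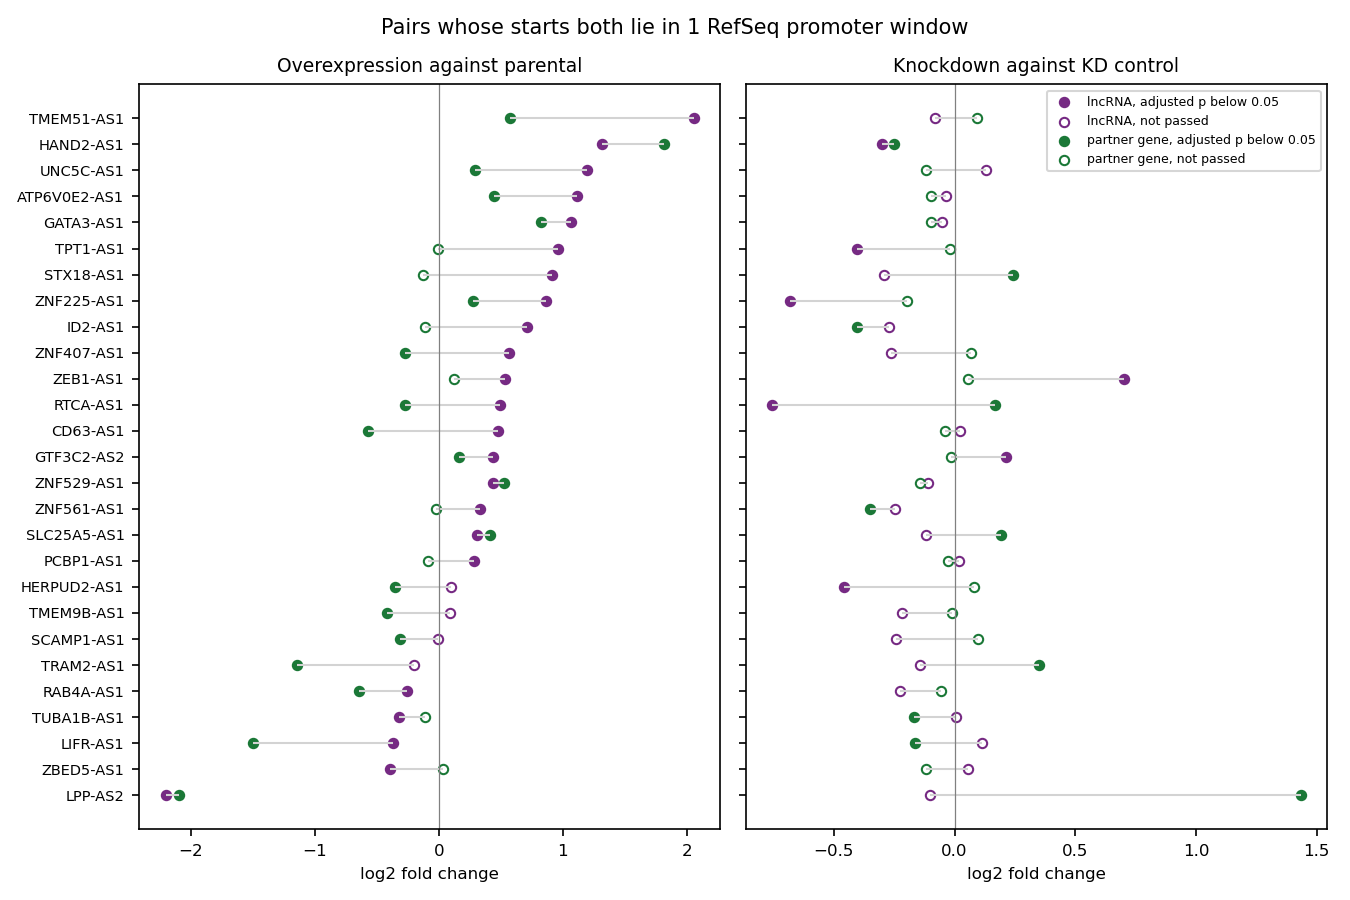
Log2 fold change in overexpression (left) and knockdown (right) of both genes of the 27 pairs whose starts lie in 1 RefSeq promoter window, ordered by the lncRNA's change in overexpression; filled points passed an adjusted p below 0.05 and a grey line joins the genes of a pair. In overexpression both genes of 12 pairs passed in the same direction, both of 3 in opposite directions, and 1 gene alone passed in 12.

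Decreases were largest at MSRB3-AS1, opposite a methionine sulfoxide reductase gene (chr12:65466820-65642372, − strand). Its counts were 1334 and 1602 in parental libraries and 68 and 32 in overexpression, and its per-length level 7.31 and 7.22 against 0.294 and 0.169 (log2 fold change -4.92 ± 0.15, adjusted p = 1.28e-09). MSRB3 was at 11.8 and 12.0 against 5.68 and 5.08 (-1.13 ± 0.06). The lncRNA fell by far more than the partner, and in the knockdown experiment the order was reversed in level, with MSRB3-AS1 at 3.18 to 3.66 and MSRB3 at 0.593 to 0.756.

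LOXL1, LOXL2 and LPP fell with their lncRNAs. LOXL1 and LOXL2 encode lysyl oxidases, which crosslink collagen and elastin. LOXL1-AS1 went from 3.28 and 3.07 to 0.845 and 0.718 in per-length level (log2 fold change -2.01 ± 0.11) and LOXL1 from 20.2 and 22.4 to 2.79 and 2.56 (-2.98 ± 0.08). LOXL2-AS1 went from 2.79 and 2.80 to 0.767 and 0.696 (-1.92 ± 0.11) and LOXL2 from 123 and 129 to 29.4 and 23.3 (-2.25 ± 0.09). Overexpression and parental libraries were apart for each of the 4 genes.

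LPP encodes a LIM-domain protein of focal adhesions. LPP-AS2 was at 4.09 and 3.96 in parental and 0.958 and 0.765 in overexpression libraries (log2 fold change -2.20 ± 0.13), and LPP at 19.6 and 17.8 against 4.69 and 4.03 (-2.09 ± 0.08). In knockdown LPP rose from 5.96 and 6.92 to 18.6 and 16.2 (1.43 ± 0.08, adjusted p = 2.18e-06). LPP and TTN were the 2 partners called in that comparison, both higher, which is 1.64% of the 122 tested, against 1.36% of all genes. LPP-AS2 was at 2.98 and 2.81 against 2.81 and 2.59 (-0.10 ± 0.11, adjusted p = 0.554). The genes of this head-to-head pair thus moved alike in the first experiment and LPP alone passed in the other.

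MSC-AS1 (-2.21 ± 0.17) and MSC (-2.39 ± 0.15), a basic helix-loop-helix repressor gene, fell by similar amounts. FAM131B-AS2 (-2.20 ± 0.08) and FAM131B (-1.65 ± 0.06) fell together although the genes lie 16921 bases apart on the same strand. GAS6-AS1 (-2.12 ± 0.08) fell by more than GAS6 (-0.46 ± 0.05), the ligand of the TAM receptor kinases. MBNL1-AS1 (-1.91 ± 0.13) and the splicing regulator gene MBNL1 (-1.10 ± 0.07) both fell, and up to 22.6% of the counts of MBNL1-AS1 in a library may come from the opposite strand by the estimate given below.

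**Figure D3:**
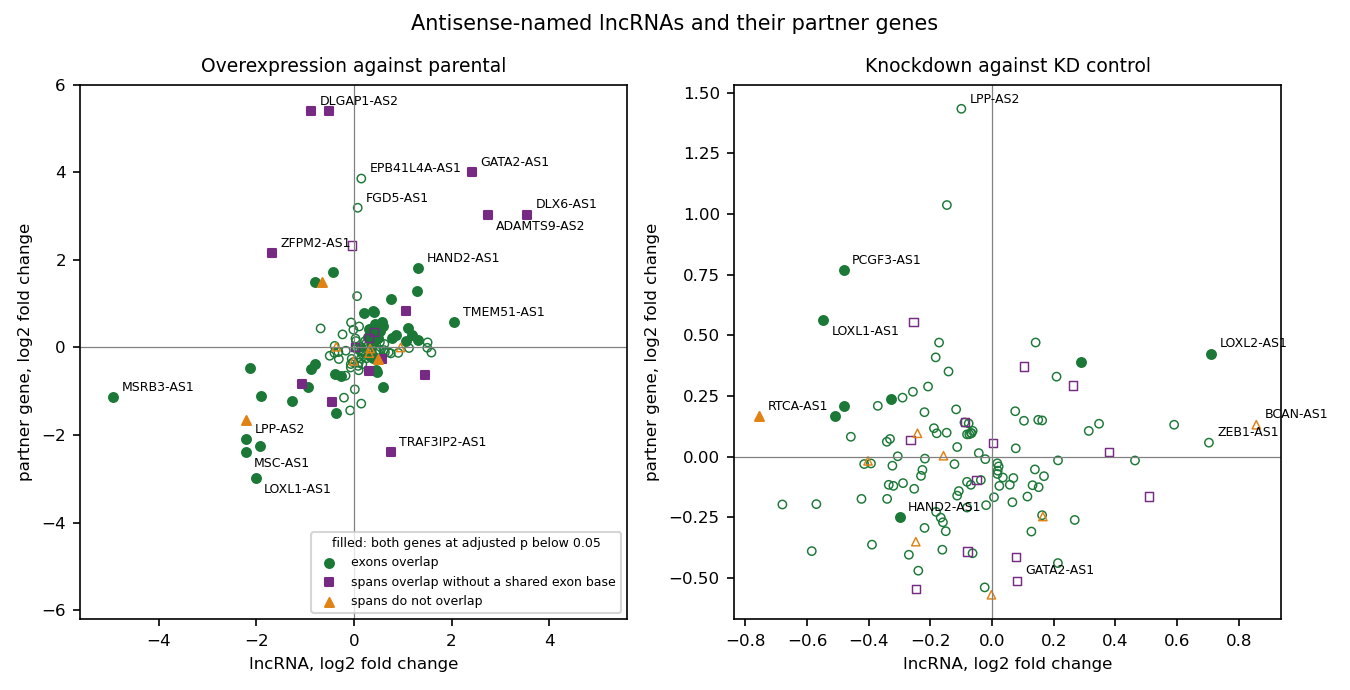
Log2 fold change of each lncRNA (x axis) against that of its partner (y axis) in overexpression (left, 134 pairs) and knockdown (right, 123 pairs), with the symbol giving the arrangement of the genes and filled symbols marking pairs of which both genes passed an adjusted p below 0.05. Filled symbols on the left lie mostly at the upper right and lower left, and the axes on the right span a smaller range.

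In overexpression both genes passed in the same direction in 47 pairs and in opposite directions in 16, out of 134 pairs with a tested partner. The lncRNA alone passed in 31 pairs, the partner alone in 24 and neither in 16, and 13 pairs had both genes called in the same direction. Pearson's r between the log2 fold changes of lncRNA and partner was 0.36 and Spearman's rho 0.36 over the 134 pairs, which share their libraries and in part their bases. By arrangement, 40 pairs with overlapping exons had both genes pass in the same direction and 7 in opposite directions (r = 0.47). Of the pairs whose spans overlap without a shared exon base, 6 did so in the same and 7 in opposite directions (r = 0.12), and of those whose spans are apart, 1 and 2. Head-to-head pairs numbered 14 and 5. Most pairs of the table have overlapping exons, 109 of the 134.

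DLGAP1, BCAN, ZFPM2 and TRAF3IP2 were among the partners that passed in the direction opposite to their lncRNAs in overexpression. DLGAP1, a scaffold gene of the postsynaptic density, had 3 and 1 counts in parental libraries and 108 and 78 in overexpression, a 44.8-fold ratio with an exact 95% counting interval from 17.2 to 166. DLGAP1-AS1 and DLGAP1-AS2, which lie within its span, fell by 0.51 and 0.88 on the log2 scale (SE 0.11 and 0.11), from 4.28 and 4.57 to 3.07 and 3.09 and from 3.17 and 3.06 to 1.63 and 1.74 in per-length level. BCAN, the gene of a brain matrix proteoglycan, rose by 1.4996 ± 0.13, from 0.573 and 0.621 to 1.63 and 1.74, while BCAN-AS1 fell by 0.65 and BCAN-AS2 by 0.80 (SE 0.11 and 0.10). In each of these pairs the lncRNA stood above its partner in parental cells.

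ZFPM2-AS1 went from 6.64 and 5.94 to 1.91 and 1.98 (log2 fold change -1.68 ± 0.10), while ZFPM2, a cofactor gene of GATA factors, had 21 and 10 counts in parental and 75 and 69 in overexpression libraries (2.15 ± 0.36, adjusted p = 4.30e-04). TRAF3IP2-AS1 went the opposite way to TRAF3IP2, an adaptor gene of interleukin-17 signalling, at 0.76 ± 0.13 against -2.39 ± 0.24. ROR1-AS1 rose by 1.46 ± 0.18 and ROR1, a receptor gene of WNT5A, fell by 0.64 on the log2 scale. None of these 3 pairs shares an exon base.

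Partners also changed beside lncRNAs that did not pass. EPB41L4A, chosen here after its values were seen, was at 0.129 and 0.0947 in parental and 1.53 and 1.66 in overexpression libraries (log2 fold change 3.85 ± 0.15), while EPB41L4A-AS1, of which 2200 exon bases lie opposite it, was at 2.45 and 2.63 against 2.77 and 2.86 (0.15 ± 0.10, adjusted p = 0.199). FGD5 had 1 and 4 counts against 28 and 21 (3.19 ± 0.55, adjusted p = 5.24e-04) beside FGD5-AS1 at 0.08 ± 0.05.

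Knockdown changed fewer of the lncRNAs and by less. At an adjusted p below 0.05, 12 rose and 23 fell, which is 8.76% and 16.8% of the 137, against 13.4% and 10.8% of the 19789 genes tested. Of the 295 other lncRNAs with the same minimum of counts, 9.83% rose and 15.3% fell, with a median log2 fold change of -0.07. The lead of decreases was thus shared with other abundant lncRNAs, in shares that were not tested against each other. The median log2 fold change was -0.11 over the lncRNAs and -0.01 over all genes. The selection bears on this direction too: 120 of the 137 members held 500 counts in the KD control pair of libraries and 108 did in the knockdown pair. No lncRNA was called by edgeR or by DESeq2, against 1.36% of all genes called higher and 0.596% lower, and 55 were at an unadjusted p below 0.05. Their log2 fold changes ranged from -0.75 to 0.86, so none reached the size that a call needs. Of 122 distinct partners tested, 23 rose and 22 fell. The counts of lncRNAs depend on the KD control libraries: fewer passed in either direction without KD control 1 or KD control 2, in fits on fewer libraries. The KD control libraries are titled CONTROLI_RA and CONTROLII_RA, whereas both knockdown libraries are titled ZMYND8_KD_RA. The titles do not say whether the controls are replicates of 1 control line or 2 different ones.

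**Figure D4:**
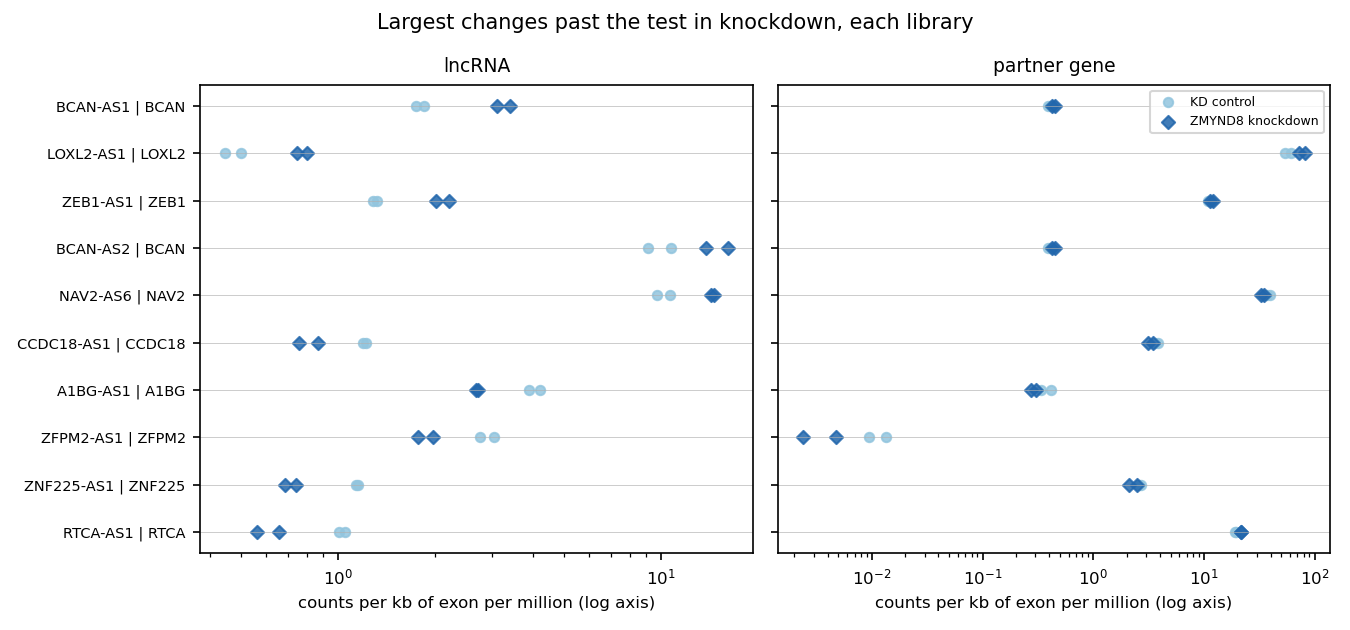
Per-length level (counts per kilobase of exon per 1000000 counts, log axis) of the lncRNAs past an adjusted p below 0.05 in knockdown that rose most (5) or fell most (5) (left) and of their partners (right), with 1 point per library and circles for KD control and diamonds for knockdown. The 2 groups are apart for all 10 lncRNAs.

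The largest increase was that of BCAN-AS1, at 1.75 and 1.85 in KD control and 3.41 and 3.09 in knockdown libraries (log2 fold change 0.86 ± 0.11, adjusted p = 3.17e-04). BCAN-AS2 was at 10.7 and 9.13 against 16.05 and 13.8 (0.59 ± 0.12, adjusted p = 0.00484; 0.48 and adjusted p = 0.062 without KD control 2), and BCAN, their shared partner, at 0.13 ± 0.17 (adjusted p = 0.633). Both lncRNAs fell in overexpression and rose in knockdown. The difference between the 2 effects was -1.51 ± 0.16 for BCAN-AS1 and -1.40 ± 0.16 for BCAN-AS2 (adjusted p = 1.34e-06 and 4.67e-06).

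ZEB1-AS1 rose in both experiments, from 0.908 and 0.987 to 1.42 and 1.31 in overexpression (log2 fold change 0.53 ± 0.14, adjusted p = 0.00614; 0.052 with DESeq2) and from 1.28 and 1.32 to 2.21 and 2.01 in knockdown (0.70 ± 0.12, adjusted p = 0.00158). ZEB1, which represses epithelial genes, passed in neither (0.12 ± 0.06 and 0.06 ± 0.06). The difference of the effects on the lncRNA was -0.18 ± 0.18 (adjusted p = 0.445).

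LOXL2-AS1 went from 0.448 and 0.501 in KD control to 0.804 and 0.748 in knockdown (log2 fold change 0.71 ± 0.16, adjusted p = 0.00789; 0.63 and 0.056 without KD control 1), and LOXL2 rose by 0.42 ± 0.08. LOXL1 rose by 0.56 ± 0.11 in the same libraries while LOXL1-AS1 fell by 0.55, from 2.90 and 2.87 to 2.09 and 1.85 (SE 0.09, adjusted p = 0.00180). The lysyl oxidase pairs, which fell alike in overexpression, thus differed in knockdown. NAV2-AS6, inside a neuron navigator gene, rose from 10.7 and 9.68 to 14.3 and 14.6 (0.51 ± 0.08), with NAV2 at -0.16 ± 0.06 (adjusted p = 0.0613). NAV2 kept its negative sign in all 11 refits and passed in 5 of them, so whether this pair counts as opposite depended on the fit.

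RTCA-AS1 showed the largest decrease, from 1.01 and 1.05 to 0.561 and 0.654 (log2 fold change -0.75 ± 0.11, adjusted p = 8.05e-04), while RTCA, an RNA cyclase gene whose annotated start lies 37 bases away, was at 19.6 and 19.1 against 21.7 and 21.6 (0.17 ± 0.05, adjusted p = 0.0374). In overexpression the lncRNA went from 0.385 and 0.309 to 0.506 and 0.460 (0.49 ± 0.15, adjusted p = 0.0174) and RTCA from 16.1 and 13.7 to 12.2 and 12.3 (-0.27 ± 0.07). The genes thus moved apart in both experiments, in opposite order. The smaller of these changes no longer passed when single libraries were left out: RTCA in knockdown without any 1 of the 4 libraries (0.15 to 0.18), RTCA in overexpression without parental 1 (-0.17), and RTCA-AS1 in overexpression without overexpression 1 (0.42) or parental 2 (0.34).

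Further decreases in knockdown were those of ZNF225-AS1 (-0.68 ± 0.12), ZFPM2-AS1 (-0.63 ± 0.12), A1BG-AS1 (-0.58 ± 0.09) and CCDC18-AS1 (-0.57 ± 0.12, adjusted p = 0.00658; 0.054 without KD control 2). A1BG-AS1, named for a plasma glycoprotein gene, was at 4.21 and 3.90 in KD control and 2.72 and 2.68 in knockdown, and at 5.16 to 5.66 in the overexpression experiment (0.03 ± 0.08). ZFPM2-AS1 and CCDC18-AS1 fell in both experiments.

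In knockdown both genes of a pair passed in the same direction in 3 pairs and in opposite directions in 6, and in all 6 the lncRNA was lower and the partner higher: LOXL1-AS1, TTC28-AS1, MCM3AP-AS1, STARD7-AS1, PCGF3-AS1 and RTCA-AS1. PCGF3, a Polycomb ring finger gene, rose from 5.59 and 5.49 to 9.24 and 9.61 (log2 fold change 0.77 ± 0.05) as PCGF3-AS1 went from 1.63 and 2.08 to 1.48 and 1.18 (-0.48 ± 0.15, adjusted p = 0.0420; -0.30 and 0.32 without KD control 2). MCM3AP, which acts in messenger RNA export, rose by 0.21 ± 0.05 and MCM3AP-AS1 changed by -0.48 ± 0.10. The number of opposite pairs fell to 2 without KD control 1, 1 without KD control 2 and 3 without knockdown 2. In 1 fit of all 8 libraries, 5 pairs passed in the same and 5 in opposite directions, and with the replicate number as a block 10 and 8, so the order of the 2 counts depended on the fit. Pearson's r over 123 pairs was 0.01 and Spearman's rho -0.00.

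Across the experiments, 15 of the 137 lncRNAs rose in overexpression and fell in knockdown, 4 did the reverse, 6 rose in both and 4 fell in both. The share of all genes in each of these combinations was not computed. Of the lncRNAs, 49.6% rose in overexpression and 16.8% fell in knockdown, so some members would do both without any link. The 15 are therefore not read as opposite responses to ZMYND8. HAND2-AS1, TPT1-AS1, RTCA-AS1, ZNF225-AS1, MCM3AP-AS1 and STARD7-AS1 were among the 15, and BCAN-AS1, BCAN-AS2, DLGAP1-AS2 and LOXL2-AS1 were the 4. Several of the knockdown changes among these no longer passed when 1 library was left out. A fit on fewer libraries is less able to pass a change of the same size. A lost pass therefore does not show that the change came from the library left out. Without KD control 2, MCM3AP-AS1 (-0.46), STARD7-AS1 (-0.49) and TTC28-AS1 (-0.35) did not pass, and DLGAP1-AS2 did not pass without KD control 1, KD control 2 or knockdown 1 (0.34, 0.43 and 0.34). In a fit over all 8 libraries, the overexpression effect exceeded the knockdown effect in 62 lncRNAs and was below it in 25 at an adjusted p below 0.05, which is 45.3% and 18.2% against 24.6% and 24.4% of 22619 genes. By the criteria of a call, 21 and 15 passed, 15.3% and 10.9% against 11.1% and 7.66%. Of the 295 other lncRNAs with the same minimum of counts, the difference was positive in 40% and negative in 21.02% at an adjusted p below 0.05. By the criteria of a call these shares were 17.97% and 7.12%. The lead of positive differences was thus shared with other abundant lncRNAs, in shares that were not tested against each other.

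Reads of overlapping genes on opposite strands bear on all of this. The strand setting of the counting is not given in the sources used here, but 540 genes that lie wholly opposite exons of other genes were used to look at it. In 104 of these whose opposite gene held at least 40000 counts, the median per-length level was 4.38% to 5.16% of that of the opposite gene in the overexpression experiment and 0.267% to 0.349% in the knockdown experiment. Counts therefore followed strand in both experiments, and a larger share fell on the opposite strand in the overexpression experiment, in parental and overexpression libraries alike. If every lncRNA received counts at this median share from the exons it faces, more than 25% of the counts in at least 1 library could be opposite-strand counts for 7 lncRNAs, among them VIM-AS1, TUBA1B-AS1 and AFAP1-AS1.

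**Figure D5:**
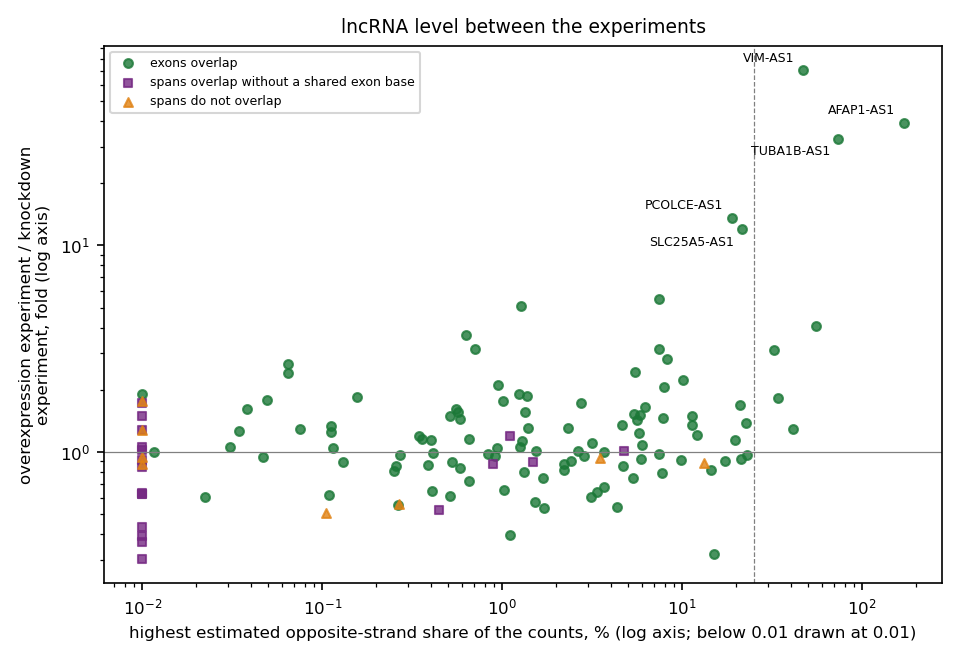
Ratio of the mean per-length level of each lncRNA in the 4 libraries of the overexpression experiment to that in the 4 of the knockdown experiment (y, log axis) against the highest estimated opposite-strand share of its counts in any library (x, percent, log axis, dashed line at 25), with the symbol giving the arrangement. The highest ratios, 70.8 for VIM-AS1, 39.3 for AFAP1-AS1 and 32.9 for TUBA1B-AS1, lie to the right of the dashed line.

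These members include those whose levels differed most between the experiments. VIM-AS1, opposite the gene of the intermediate filament vimentin, had 4291, 5781, 3060 and 2381 counts in the overexpression experiment and 49 to 68 in the 4 libraries of the knockdown experiment, and 11.7% to 13.0% of its counts may be opposite-strand by the estimate in the former and 22.5% to 46.9% in the latter. It fell by 0.93 on the log2 scale in overexpression, and VIM fell by 0.91. AFAP1-AS1 had 768 and 934 counts in parental, 387 and 344 in overexpression and 15 to 22 in the knockdown experiment, and moved by -1.26 ± 0.09 beside AFAP1 at -1.22 ± 0.07. Its estimated share was 55.8% to 61.8% in the overexpression experiment, in which that change was measured, and exceeded its counts in all 4 libraries of the knockdown experiment. TUBA1B-AS1, PCOLCE-AS1 and SLC25A5-AS1 were the other members with every library of the knockdown experiment at least 4-fold below every library of the overexpression experiment, and no member showed the reverse. A difference between the experiments and a difference between cell stocks cannot be told apart here. PCOLCE-AS1 and SLC25A5-AS1, with estimated shares of up to 18.8% and 21.6%, are not among the 7 members above 25%. Without the 7 members, 67 lncRNAs rose and 25 fell in overexpression, and 12 rose and 23 fell in knockdown. The pairs that passed together then numbered 44 in the same and 16 in opposite directions in overexpression. The estimate applies 1 median share to every gene, so these counts can still hold members with more opposite-strand counts.

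At the threshold of 2000 counts, C10orf95-AS1 (2043 counts) and PYDC2-AS1 (2041) lay just inside, and WDR86-AS1 (1989) and URB1-AS1 (1976) just outside. Of the 1674 antisense-named lncRNAs below the threshold, 668 had enough counts to be tested in overexpression, of which 188 rose and 119 fell. These are 28.1% and 17.8% of the 668, against 31.7% and 29.1% of all genes tested. For 7 members, among them AGAP2-AS1, NUTM2A-AS1 and UGDH-AS1, more than 20% of the 31-base stretches of their transcripts also occur in transcripts of other genes, so their counts are uncertain.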

How the data were processed

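RNA-seq libraries of SK-N-SH cells were compared in 4 groups of 2. Per the methods, the authors trimmed reads with Trim_Galore, removed reads with a Phred score under 25, used Hisat2 for alignment to GRCh38 and featureCounts with GENCODE release 28 for counting. The authors deposited raw counts per gene, without normalization. The strand setting is not given in the sources used here. Of 60662 lines, 3 were broken and left out.

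Symbols, biotypes and gene overlaps came from GENCODE release 44, which holds 60418 of the 60659 genes and is not the release named by the authors, and coordinates from the count table. For each comparison, only its 4 libraries entered a fit in edgeR 4.0.16 (quasi-likelihood test, two-sided, TMM normalization, filterByExpr) in R 4.3.3, with Benjamini-Hochberg adjustment over all genes tested. A gene passed at an adjusted p below 0.05 and was called if its log2 fold change was also at least 1 in size and its mean normalized count above 20. The difference between the overexpression and knockdown effects was fitted over all 8 libraries. Replicates are biological by the labels, which do not say how the cultures were separated, so p-values measure the spread between these libraries.

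The members and lists were chosen with earlier results of these data known. Named lncRNAs are the 8 largest called increases and decreases in overexpression, the 5 largest in each direction in knockdown, the 5 highest per-length levels, up to 6 opposite pairs and up to 6 pairs called together, those beside listed transcription factor and other genes, and those at the threshold. TPT1-AS1, EPB41L4A-AS1, members named to spell out a count and the promoter windows shown were chosen after their values were seen. Alternatives were DESeq2 1.42.0, other normalizations, filters and count minimums, a replicate block and leaving out each library. The script was tested on simulated data. Per-length levels are counts per kilobase of exon per 1000000 counts.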

Additional observations from a re-analysis of the deposited data

Results flagged for a closer look

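For 10 of the named lncRNAs that passed in both experiments, the overexpression effect differed from the knockdown effect in the fit over all 8 libraries by edgeR's quasi-likelihood test, by at least 1 on the log2 scale. The difference is given as overexpression effect minus knockdown effect, with its adjusted p.

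The difference was positive for 4 of them. It was 3.17 for DLX6-AS1 (adjusted p = 1.75e-08), which was higher in both experiments, though it did not pass in knockdown with 7 alternatives. It was 1.61 for HAND2-AS1 (adjusted p = 6.19e-09), 1.54 for ZNF225-AS1 (adjusted p = 1.58e-06) and 1.24 for RTCA-AS1 (adjusted p = 7.78e-05), which were higher in overexpression and lower in knockdown.

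The difference was negative for the other 6. It was -2.64 for LOXL2-AS1 (adjusted p = 1.53e-08), -1.51 for BCAN-AS1 (adjusted p = 1.34e-06), -1.40 for BCAN-AS2 (adjusted p = 4.67e-06) and -1.27 for DLGAP1-AS2 (adjusted p = 6.41e-06), which were lower in overexpression and higher in knockdown. It was -1.47 for LOXL1-AS1 (adjusted p = 8.75e-07) and -1.06 for ZFPM2-AS1 (adjusted p = 6.06e-05), which were lower in both.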

How the results depend on the processing

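Of 106 values of named genes that passed, 75 kept their direction and their side of the threshold in all 11 refits, and 31 no longer passed in at least 1, among them HSD17B1-AS1 in overexpression, which turned to -0.025 with gene length and GC trends taken out. Of 348 counts recomputed, 299 stayed within 1.5 times. The cause of the other shifts was not tested, except that a count minimum or a limit to some pairs changes the number of members.

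In overexpression, a minimum of 1000 counts gave 55 lower lncRNAs, 20 lncRNAs called lower, 68 higher and 81 lower partners with 23 called lower, and 87 pairs in the same direction. A minimum of 5000 gave 22 higher and 9 lower lncRNAs with 3 and 3 called, 15 higher and 13 lower partners with 3 and 3 called, and 15 and 3 pairs in the same and opposite directions. Pairs without a shared exon base numbered 7 and 9. Each of these limits changes the number of lncRNAs, partners and pairs. The counts are given without shares, so a count above or below that of the full set is not by itself a shift.

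In knockdown, leaving out 1 library gave 5 to 11 higher and 11 to 21 lower lncRNAs, 12 to 20 higher and 13 to 20 lower partners with 1 to 2 called higher, and 1 to 4 opposite pairs. Without a filter on low counts, 12 lncRNAs were lower, 15 partners higher and 12 lower, and 2 pairs opposite. A minimum of 1000 counts gave 2 lncRNAs called higher, 38 higher and 40 lower partners and 7 pairs in the same direction, and a minimum of 5000 gave 5 higher and 10 lower lncRNAs, 6 higher and 9 lower partners with 1 called, and 0 opposite pairs. Pairs without a shared exon base numbered 0 and 1. Here too the count minimums and the limit to some pairs change the number of members, and no shares are given. With length and GC trends taken out, or at least 100 counts in the other experiment, 1 partner was called higher, and 1 fit of all 8 libraries gave 5 pairs in the same direction.

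Replicate numbers did not pair the libraries (correlation of deviations 0.00877 in overexpression, -0.00728 in knockdown). With the replicate block, 69 lncRNAs were higher and 30 lower in overexpression, 14 and 32 in knockdown, and 10 pairs in knockdown moved in the same and 8 in opposite directions. With DESeq2, 54 and 26 lncRNAs passed in overexpression and 9 and 18 in knockdown, and 32 pairs moved in the same direction in overexpression. Counting depth limits the tests of partners with few counts, such as FGD5 and DLGAP1.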
